A study of Rattus norvegicus with 15 samples.

Results

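The genes described here build the contractile fibres of skeletal muscle. The list holds 40 genes of the sarcomere, of calcium handling and of fibre energy metabolism, and 37 of them have a row among the 17463 gene symbols counted in rat mammary tumours. RYR1, TTN and NEB are not analysed here. By role the 37 are 14 genes of fast fibres, 8 of slow fibres, 2 developmental myosins, 6 structural genes shared by all fibres, 2 genes of calcium signalling and iron regulation, and 5 enzymes.

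The tumours came from Fischer rats, an inbred strain, and every rat received N-nitroso-N-methylurea (NMU), a carcinogen that induces mammary tumours, by intraperitoneal injection of 50 mg/kg. The midkine group (9 libraries) also received rat midkine recombinant protein, a heparin-binding growth factor, at 300 ug/kg and 3 injections a week for 2 weeks before each NMU dose, and the vehicle group (6 libraries) did not. A ground piece of tumour gave the RNA for poly(A)-selected sequencing, so each library mixes tumour cells with whatever tissue lay in the piece. Each library is called by its treatment and the number in its title. The pair vehicle 2-1 and 2-2, the pair midkine 3-1 and 3-2 and the trio midkine 4-1 to 4-3 have a number in common, and no label says whether each set came from 1 animal. P-values therefore measure the spread between libraries, part of which may be technical. No label gives an age.

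Skeletal muscle fibres contract when calcium released from the sarcoplasmic reticulum binds troponin and lets myosin heads pull on actin. Fast fibres use their own versions of myosin heavy and light chains, troponins, calcium pump and calsequestrin, while slow fibres use versions that are largely shared with heart muscle and hold more myoglobin. Embryonic and perinatal myosins precede both and return in regenerating fibres. The mammary gland has no sarcomeric muscle of its own: its contractile cells are myoepithelial cells and the smooth muscle of vessels, which use another set of actins and myosins. The rat mammary chain lies under the skin close to the muscles of the body wall.

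The start regions of the adult fast myosin heavy chains and of skeletal actin are shown because these genes carry the contrasts described below, between the fibre genes of midkine 1 and midkine 5 and between the low levels of the other libraries. They are RefSeq sequences of the GRCr8 assembly, 5′ to 3′ on the gene's strand, each 300 bases long with 250 bases before and 50 from the annotated start, and they were read from a table of 34 members. The counts themselves were made on the build rn6. The regions are MYH4 at chr10:52421898-52422197 (+), MYH1 at chr10:52384662-52384961 (+), MYH2 at chr10:52355489-52355788 (+) and ACTA1 at chr19:68784145-68784444 (−). Capitals mark the letters CAGCTG, the MEF2 consensus, the letters TATAAA and the CArG box consensus.
MYH4: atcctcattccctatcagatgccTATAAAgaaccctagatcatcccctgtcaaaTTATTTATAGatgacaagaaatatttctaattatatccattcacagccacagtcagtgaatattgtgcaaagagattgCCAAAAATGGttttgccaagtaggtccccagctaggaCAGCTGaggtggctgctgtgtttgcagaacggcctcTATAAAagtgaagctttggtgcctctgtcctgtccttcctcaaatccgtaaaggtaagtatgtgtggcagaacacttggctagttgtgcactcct
MYH1: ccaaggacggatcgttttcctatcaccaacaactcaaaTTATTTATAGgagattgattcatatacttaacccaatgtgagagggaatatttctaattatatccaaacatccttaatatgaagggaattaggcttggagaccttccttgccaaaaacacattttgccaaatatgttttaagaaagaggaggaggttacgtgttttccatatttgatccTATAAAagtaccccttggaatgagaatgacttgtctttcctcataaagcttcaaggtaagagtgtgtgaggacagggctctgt
MYH2: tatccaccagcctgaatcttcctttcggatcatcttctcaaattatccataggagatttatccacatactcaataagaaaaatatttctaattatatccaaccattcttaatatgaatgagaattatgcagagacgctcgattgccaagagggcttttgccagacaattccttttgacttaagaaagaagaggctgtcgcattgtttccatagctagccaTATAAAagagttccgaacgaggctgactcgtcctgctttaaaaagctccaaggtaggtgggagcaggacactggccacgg
ACTA1: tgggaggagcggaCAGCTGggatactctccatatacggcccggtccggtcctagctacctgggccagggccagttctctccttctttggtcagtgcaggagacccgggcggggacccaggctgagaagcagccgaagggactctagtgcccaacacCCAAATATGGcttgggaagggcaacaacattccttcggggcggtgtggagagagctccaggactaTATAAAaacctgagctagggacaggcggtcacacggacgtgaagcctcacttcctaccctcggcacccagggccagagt

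TATAAA began 45 bases before the start in MYH4, 33 bases before it in MYH1, 30 in MYH2 and 29 in ACTA1. In MYH4 another TATAAA began 227 bases before the start. The MEF2 consensus, the letters bound by the MEF2 factors of muscle, was found in MYH4 (196 bases before the start) and MYH1 (212) and not in the windows of MYH2 and ACTA1. The CArG box consensus, bound by serum response factor, was found in MYH4 (118 bases before the start) and ACTA1 (94), and CAGCTG, an E-box of the kind bound by MyoD, in MYH4 (81) and ACTA1 (237). Of these 4 windows only that of MYH4 held all 4 motifs. Both strands were searched, and in MYH4 and MYH1 the MEF2 match also holds TATAAA on the opposite strand. Among the 34 members with a sequence, 13 held CAGCTG against 15.1% of 33469 rat promoter windows of this length, 12 held TATAAA (14.2% of all), 6 the MEF2 consensus (3.29%), 4 the CArG consensus (1.64%) and 29 any E-box, CANNTG, which includes CAGCTG (72.1%). A match describes letters and is not evidence of binding.

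Deposited totals ran from 4925504 to 8486523 counts a library. Levels are given as raw CPM, the count per 1000000 deposited counts of that library. They are not divided by gene length, so they compare 1 gene between libraries and not 1 gene with another.

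In midkine 1 the fibre genes made up a large part of the library. They held 2244776 of its counts, 29.5% (exact 95% interval 29.46 to 29.52, counting error only). Midkine 5 came next with 0.492% (0.487 to 0.498). The vehicle libraries held 0.0632% at the lowest, 0.0906% at the median and 0.118% at the highest, midkine 2 and 6 held 0.0811% and 0.0591%, and the midkine libraries 3-1, 3-2, 4-1, 4-2 and 4-3 held 0.0224%, 0.0127%, 0.0503%, 0.0362% and 0.0178%. These 5 lay below every other library. The midkine group thus held both the highest and the lowest shares, and vehicle lay between. In a ground tumour piece, fewer fibres and less RNA per fibre cannot be told apart.

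**Figure D1:**
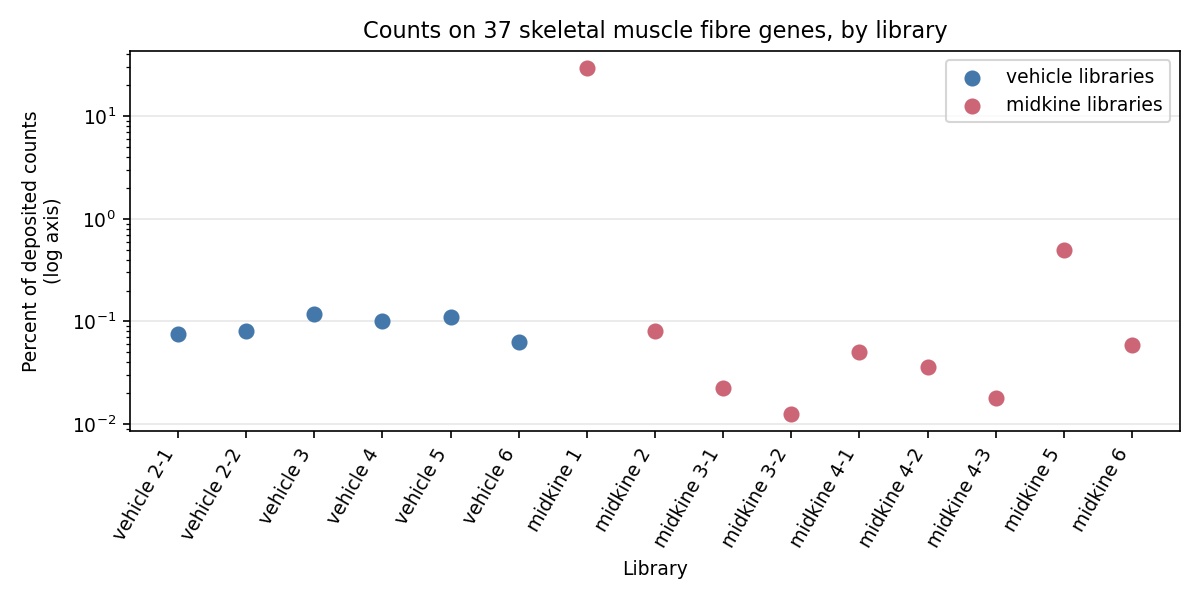
Percent of each library's deposited counts that fell on the 37 fibre genes (y axis, log scale), 1 point per library, vehicle in blue and midkine in red. Midkine 1 stands at 29.5%, midkine 5 at 0.492% and the 6 vehicle libraries between 0.0632% and 0.118%.

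All 37 genes had their highest level in midkine 1, and 32 of them had their second highest in midkine 5. The level in midkine 1 was 1.23 to 334 times that of the next library (median over genes 56.0). Of the 10 genes with most counts in midkine 1, 7 were fibre genes, and of the 30 with most counts 18 were. The others in the first 10 were the glycolytic enzyme gene ALDOA, the tropomyosin gene TPM2 and the imprinted RNA H19. The skeletal muscle regulators MYOD1 and MYF6 stood there at 66.2 and 87.0 raw CPM and at no more than 0.949 and 2.06 raw CPM in any other library.

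**Figure D2:**
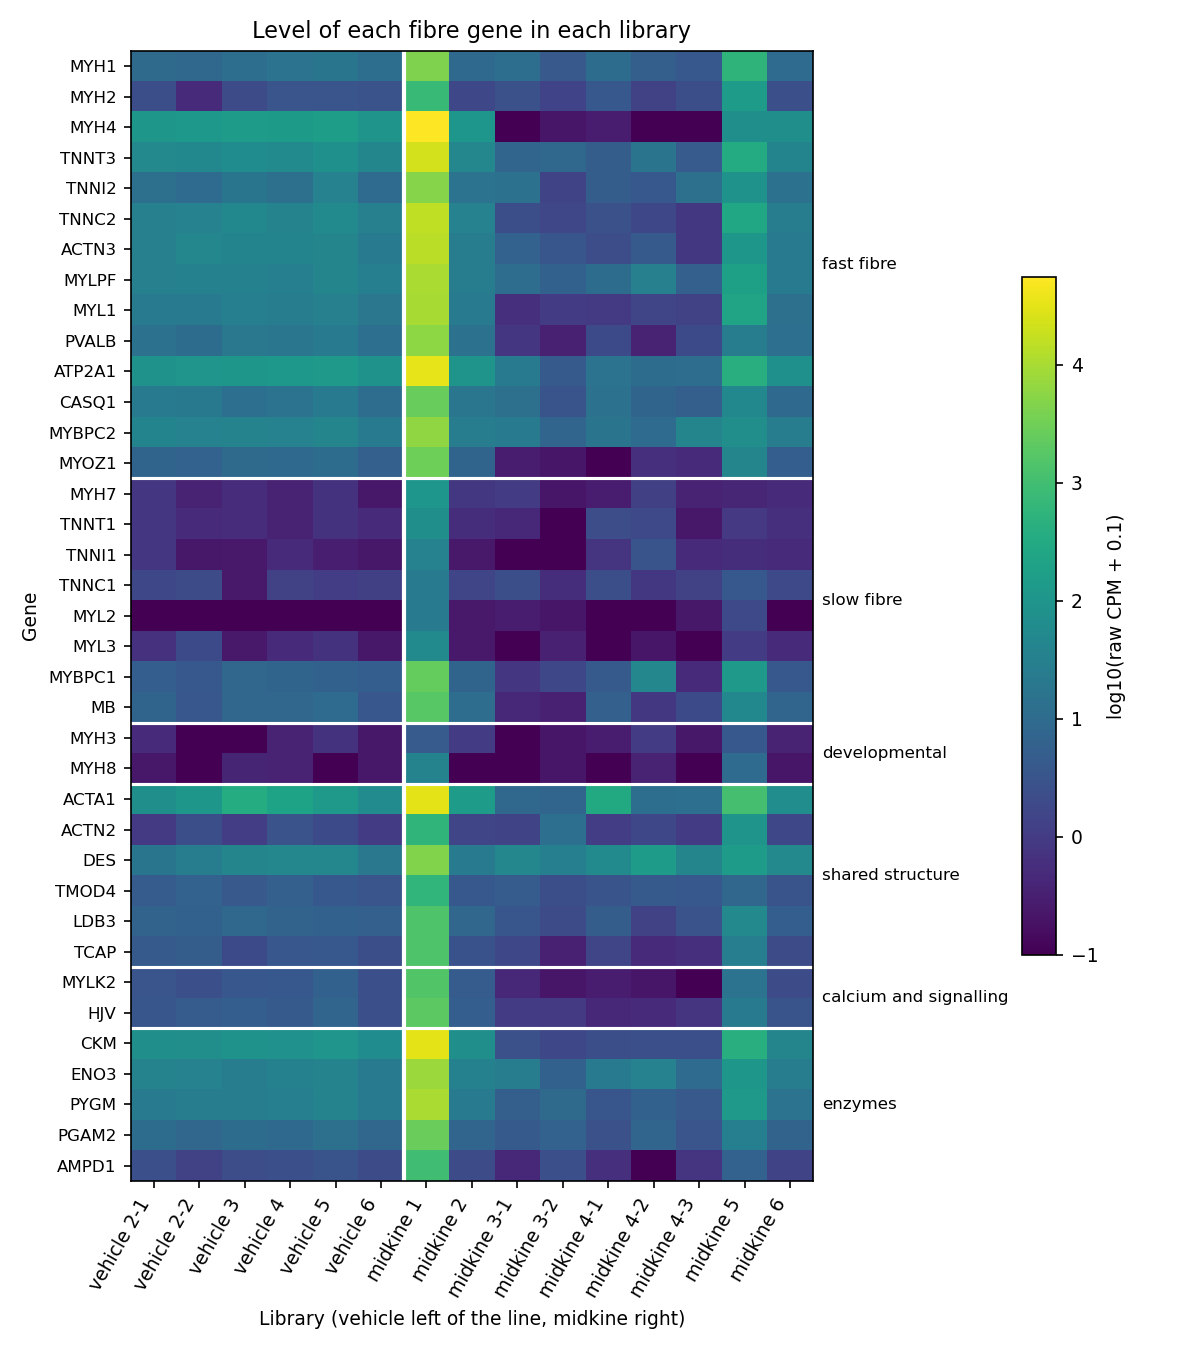
Level of each measured fibre gene (rows, grouped by role) in each library (columns, vehicle left of the white line), as log10(raw CPM + 0.1) by colour. Midkine 1 is the brightest column for every gene, midkine 5 is second for most, and the columns 3-1 to 4-3 are dark for MYH4, MYL1, TNNC2 and CKM.

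Fast fibre genes held the largest part of these counts. In midkine 1 the 14 fast genes took 64.8% of all fibre gene counts, the 5 enzymes 18.6%, the 6 shared structural genes 13.9%, the 8 slow genes 1.54%, MYLK2 and HJV together 1.18% and the pair of developmental myosins 0.0139%. In midkine 5 the fast genes again led with 52.0%, followed by shared structure with 29.3%, the enzymes with 14.01% and the slow genes with 3.63%.

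MYH4 encodes the heavy chain of the fastest fibres, type IIB. It had 424500 counts in midkine 1, which is 5.58% of the library and 55763 raw CPM. Vehicle libraries 2-1, 2-2, 3, 4, 5 and 6 had 782, 890, 986, 993, 823 and 688 counts, midkine 2, 5 and 6 had 688, 461 and 569, and midkine 3-1, 3-2, 4-1, 4-2 and 4-3 had 0, 1, 1, 0 and 0. A count of 0 allows up to 3 counts, or 0.540 raw CPM in midkine 3-1, the least deep of the 3 libraries at 0. Midkine 5 was not the second highest library for 5 genes, namely MYH4 and the slow genes MYH7, TNNT1, TNNI1 and MYL3, which had 2 to 6 counts there.

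MYH1 encodes the heavy chain of type IIX fibres and MYH2 that of type IIA fibres. MYH1 had 4289 raw CPM in midkine 1 and 535 in midkine 5. In vehicle it ran from 8.03 to 17.1 raw CPM (median 11.8), and in the other 7 midkine libraries from 3.74 to 12.1. MYH2 had 789 raw CPM in midkine 1 and 149 in midkine 5, against 0.389 to 3.25 in vehicle (median 2.57). Midkine 1 was therefore 8.01 times midkine 5 for MYH1 and 5.31 times for MYH2, below the median gene's 56.0 times the next library.

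The 6 sarcomeric myosin heavy chain genes measured divided the libraries by composition. In midkine 1 MYH4 took 91.4% of the 464255 counts on these genes, MYH1 7.03%, MYH2 1.29% and the slow chain MYH7 0.169%. In midkine 5 MYH1 took 69.4% of 4873 counts, MYH2 19.3% and MYH4 9.46%. The 6 vehicle libraries and midkine 2 and 6, with 675 to 1138 counts on these genes, had 84.3% to 93.0% on MYH4, as in midkine 1. Midkine 3-1, 3-2, 4-1, 4-2 and 4-3 had 48 to 90 counts, of which 58.0% to 77.9% were MYH1 and at most 2.08% MYH4, so that their leading chain was that of midkine 5. With so few counts the shares of these 5 libraries are coarse.

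**Figure D3:**
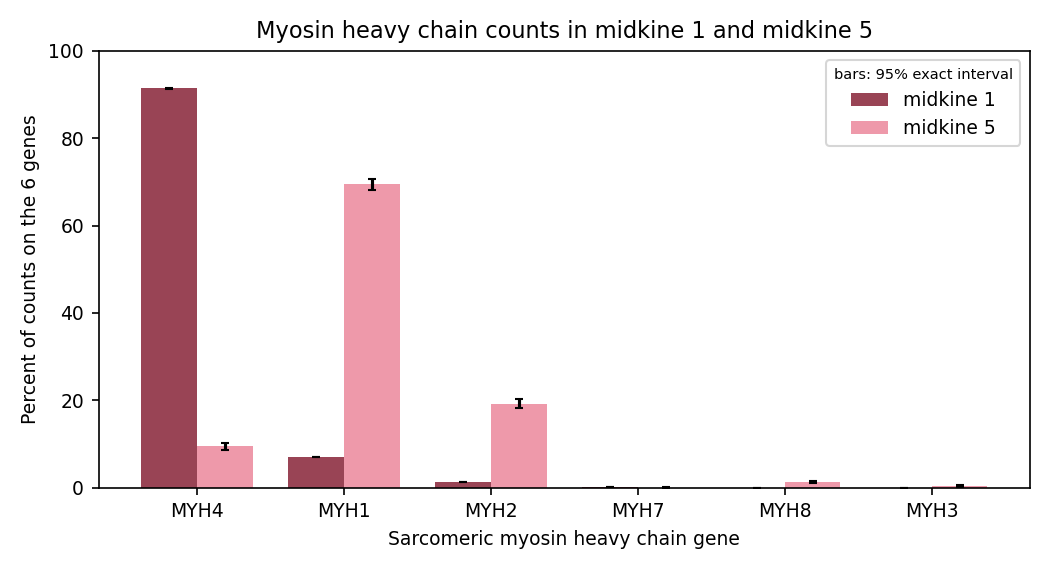
Share of the counts on 6 sarcomeric myosin heavy chain genes (y axis, percent) held by each gene in midkine 1 and midkine 5, with exact 95% intervals of counting error as bars. MYH4 holds 91.4% in midkine 1 and 9.46% in midkine 5, where MYH1 holds 69.4%.

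The developmental chains had more counts in midkine 5 than in any library but midkine 1. MYH8, the perinatal chain, had 277 counts in midkine 1 and 63 in midkine 5 and at most 2 in any other library. MYH3, the embryonic chain, had 34 counts in midkine 1, 23 in midkine 5 and at most 7 elsewhere. MYH3 and MYH8 made up 0.472% and 1.29% of the myosin counts of midkine 5 and 0.00732% and 0.0597% of those of midkine 1. The exact intervals of the 2 libraries do not overlap for either gene, but each library is 1 sample and no test between them is possible. Some libraries with fewer myosin counts had higher shares than midkine 5. Midkine 4-2 had 9.86% MYH3 (4.06 to 19.3) and 2.82% MYH8 (0.343 to 9.81) of 71 counts. Midkine 2, 3-2, 4-1 and 4-3 were also above midkine 5 for MYH3, on 6, 1, 1 and 1 counts, and midkine 3-2 for MYH8, on 1.

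Fast troponins, light chains and the calcium apparatus followed MYH4 in midkine 1. TNNT3, the fast troponin T, had 22167 raw CPM in midkine 1, 343 in midkine 5, and in vehicle 44.1 at the lowest, 51.1 at the median and 77.1 at the highest. TNNC2, the fast calcium-binding troponin C, had 16105 raw CPM in midkine 1, 261 in midkine 5 and 31.3 to 57.5 in vehicle, against 0.774 to 2.51 in the midkine libraries of title numbers 3 and 4. ATP2A1, the calcium pump of fast fibres (SERCA1), had 34555 raw CPM in midkine 1, 403 in midkine 5 and 88.0 to 128 in vehicle (median 104). Each of these genes was lower in all 5 midkine libraries of title numbers 3 and 4 than in any of the other 10 libraries.

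PVALB, the calcium buffer parvalbumin of the fastest fibres, had 5826 raw CPM in midkine 1 but 27.5 in midkine 5, where vehicle reached 24.6. ACTN3, the fast fibre actinin of the Z-disc, had 14303 raw CPM in midkine 1, 112 in midkine 5 and 23.9 to 45.3 in vehicle. PVALB and ACTN3 were thus 212 and 127 times higher in midkine 1 than in the next library, more than the median gene. The remaining fast genes TNNI2, MYLPF, MYL1, CASQ1, MYBPC2 and MYOZ1 had 2555 to 10431 raw CPM in midkine 1 and 40.7 to 223 in midkine 5.

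Slow fibre genes other than MYBPC1 and MB were present in midkine 1 at far lower counts. MYH7 had 785 counts there, against 1 to 5 in vehicle and 2 in midkine 5. TNNT1, TNNI1, TNNC1, MYL2 and MYL3, the slow troponins and light chains, had 548, 264, 180, 171 and 414 counts in midkine 1. In midkine 5 they had 5, 3, 23, 11 and 6. MYL2 had no count in any vehicle library. MYBPC1 and MB, myoglobin, had 18602 and 13664 counts in midkine 1, more than the 6009 of the fast gene MYH2. MYBPC1 had 2444 raw CPM there, 122 in midkine 5 and 3.63 to 7.63 in vehicle. MB had 1795 raw CPM in midkine 1, 48.1 in midkine 5 and 3.45 to 10.2 in vehicle (median 7.37).

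Each of 11 fast genes was set against its slow or heart counterpart by counts in the same library. In midkine 1 the fast gene had more counts in 11 of 11 pairs, with a ratio of 2.58 (MYBPC2 over MYBPC1) to 681 (TNNC2 over TNNC1) and a median of 203. In midkine 5 it had more in 10 of 11 pairs, with a median of 71.7. These ratios are not per length, but gene length cancels when 1 pair is compared between the 2 libraries. The ratio was higher in midkine 1 for 8 pairs and lower for 3. Of the slow or heart genes in these 8 pairs, ATP2A2, CASQ2 and MYH7 did not pass the highest vehicle level in midkine 5. They stood there at 182, 8.39 and 0.316 raw CPM, against 580, 8.53 and 0.703 in vehicle. ACTN2, MYBPC1, MYOZ2, MYL2 and TNNC1 stood above every vehicle library. The part of transcripts from outside fibres in this tally was not tested.

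ATP2A1 over ATP2A2 (SERCA2, the pump of slow fibres that most other cells use as well) was 297 in midkine 1 (exact 95% interval 278 to 317) and 2.22 in midkine 5 (2.07 to 2.38). ACTN3 over ACTN2 was 24.9 (24.2 to 25.7) and 1.18 (1.05 to 1.31). MYBPC2 over MYBPC1 was 2.58 (2.53 to 2.62) and 0.565 (0.501 to 0.636), so that the slow type of myosin-binding protein C led in midkine 5. By contrast TNNT3 over TNNT1 was 308 (283 to 335) and 434 (186 to 1339), TNNI2 over TNNI1 145 (128 to 164) and 189 (64.3 to 919), and MYL1 over MYL3 180 (164 to 199) and 235 (108 to 641). The intervals of these 3 pairs overlap between the libraries. Those of MYH4 over MYH7 overlap as well, at 541 (504 to 581) in midkine 1 and 230.5 (63.4 to 1909) in midkine 5. The latter ratio rests on 2 counts of MYH7. The calsequestrin pair CASQ1 and CASQ2 had ratios of 99.7 and 5.81, and MYOZ1 over MYOZ2 had 203 and 4.76.

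Of the shared structural genes, ACTA1, DES and ACTN2 had an order of their own outside midkine 1 and 5, while LDB3 and TCAP were lowest in the 5 midkine libraries of title numbers 3 and 4. ACTA1, skeletal alpha actin, had 32602 raw CPM in midkine 1, 1106 in midkine 5, 369 in vehicle 3, 304 in midkine 4-1, 219 in vehicle 4 and 153 in midkine 2. The other libraries held 7.31 to 121. After midkine 1 and 5 the 4 highest libraries for ACTA1 were also the 4 highest of all 15 for the smooth muscle actin ACTG2, with 1277 (vehicle 3), 974 (midkine 4-1), 1161 (vehicle 4) and 1631 raw CPM (midkine 2). Actin genes are near-identical in their coding sequence, so how reads were divided between them is uncertain, and its part in these values was not tested.

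DES encodes desmin, the intermediate filament of skeletal, heart and smooth muscle. It had 4449 raw CPM in midkine 1, 153 in midkine 5 and 144 in midkine 4-2, and in vehicle 16.6 at the lowest, 33.2 at the median and 45.3 at the highest. In the 5 midkine libraries of title numbers 3 and 4 it ran from 29.8 to 144, so desmin was not low where MYH4, TNNC2 and MYL1 were. In midkine 4-2 MYBPC1 (45.01 raw CPM, 354 counts) and MYLPF (31.4) were also higher than in the other 4 of these libraries, which held 0.387 to 4.18 and 5.68 to 11.3.

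ACTN2, the actinin of all fibres and of heart, had 574 raw CPM in midkine 1, 95.4 in midkine 5 and 12.6 in midkine 3-2, and at most 2.84 elsewhere. TMOD4, a cap of actin filaments, had 618 raw CPM in midkine 1 and 2.36 to 7.91 elsewhere. LDB3 and TCAP, proteins of the Z-disc, had 1430 and 1428 raw CPM in midkine 1 and 51.6 and 28.6 in midkine 5. MYLK2, the kinase of skeletal light chains, and HJV, hemojuvelin, a co-receptor in iron regulation made in muscle and liver, had 1540 and 1948 raw CPM in midkine 1, 15.2 and 22.2 in midkine 5, and at most 6.09 and 7.51 elsewhere.

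Enzymes of fibre energy supply were also first in midkine 1 and second in midkine 5. CKM, the muscle creatine kinase, had 32820 raw CPM in midkine 1 and 414 in midkine 5. Vehicle held 61.2 at the lowest, 76.8 at the median and 102 at the highest, midkine 2 and 6 held 72.6 and 40.3, and the midkine libraries of title numbers 3 and 4 held 1.65 to 2.52. PYGM, muscle glycogen phosphorylase, had 10666 raw CPM in midkine 1, 128 in midkine 5, 21.8 to 36.7 in vehicle and 3.34 to 9.66 in those 5 libraries. ENO3, the muscle enolase, had 7476 raw CPM in midkine 1 and 111 in midkine 5. PGAM2 and AMPD1, the muscle phosphoglycerate mutase and AMP deaminase, had 2782 and 964 raw CPM in midkine 1 and 29.4 and 6.33 in midkine 5. Among the midkine libraries of title numbers 3 and 4, ENO3 reached 34.5 raw CPM in midkine 4-2 (vehicle median 34.3) and AMPD1 2.47 in midkine 3-2 (vehicle median 2.27), so these were not lower in all 5 libraries. PGAM2 reached 7.37 in midkine 4-2, against 6.75 in midkine 6 and 7.58 to 13.2 in vehicle.

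Outside midkine 1 and 5 the fibre genes were present at trace levels, and these kept a nearly constant ratio to midkine 1 in 8 libraries. The ratio was taken for the 18 members with at least 20000 counts in midkine 1, as the percent of each gene's midkine 1 level. Its median was 0.204% to 0.371% in the 6 vehicle libraries, 0.239% in midkine 2 and 0.207% in midkine 6. In each of these 8 libraries 16 or 17 of the 18 genes lay within 2-fold of the library's median. The highest median was that of vehicle 5, the library of lowest total.

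In midkine 3-1, 3-2, 4-1, 4-2 and 4-3 the median was 0.0256% to 0.0473%, and 4 to 6 of the 18 genes lay within 2-fold of it. Over the 18 genes, Pearson's r of log10(raw CPM + 1) with midkine 1 was 0.809 to 0.955 in the 8 libraries and -0.206 to 0.0806 in these 5. Midkine 5 had a median of 1.41%, with 13 of 18 genes within 2-fold and an r of 0.554. Over the 27 members with at least 5000 counts in midkine 1, r was 0.912 to 0.965 in the 8 libraries. It was then 0.218 to 0.269 in the 5 and 0.678 in midkine 5. These values describe genes of shared libraries, which are not independent points. Of the 37 members 14 were lower in each of the 5 libraries than in every other library, namely ACTN3, ATP2A1, CKM, HJV, LDB3, MYH4, MYL1, MYLK2, MYOZ1, PVALB, PYGM, TCAP, TNNC2 and TNNT3. The share of all genes with this pattern was not computed, so the count is a description and not a measure of how unusual it is.

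**Figure D4:**
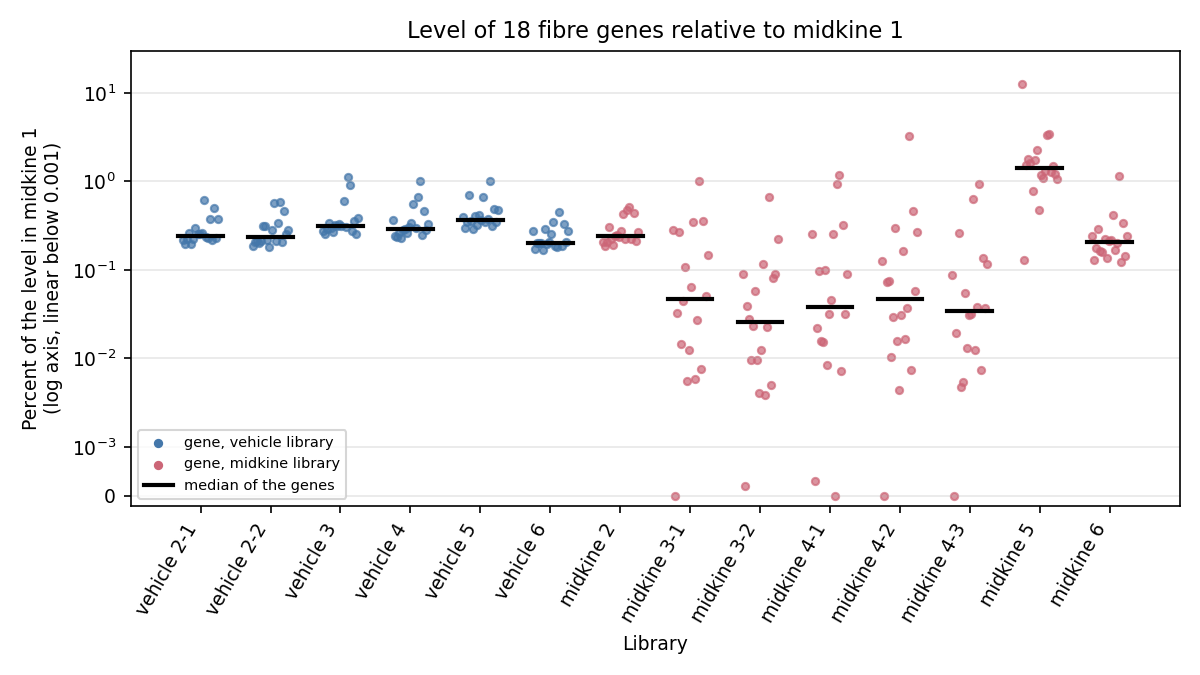
Level of 18 fibre genes in each other library as a percent of the level in midkine 1 (y axis, log scale, linear below 0.001), 1 point per gene and a bar at the median. The 6 vehicle libraries and midkine 2 and 6 form tight bands at medians of 0.204% to 0.371%, the midkine libraries 3-1 to 4-3 spread widely at lower medians, and MYH4 of midkine 5 (0.131%) lies far under that library's median of 1.41%.

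MYH4 in midkine 5 stood at 0.131% of its midkine 1 level, inside the range of the 8 libraries (0.130% to 0.300%), while MYH1 and MYH2 stood there at 12.5% and 18.8% against at most 0.398% and 0.412% in the 8. PVALB in midkine 5, at 0.473%, lay just above the highest of the 8, 0.422%. Departures of 3-fold or more from the common ratio were few in vehicle. Set against the median of the 27 members with at least 5000 counts in midkine 1, ACTA1 in vehicle 3 was 3.62 times it, DES in vehicle 4 was 3.50 times it, and CASQ1 in vehicle 2-1 and 2-2 was 3.43 and 3.63 times it. On the low side MYH2 in vehicle 2-2, with 3 counts, stood at 0.0492% against a median of 0.220%. In midkine 6 DES was 5.75 times the library's median. Whether the trace counts came from fibres in each tumour or from reads of midkine 1 that were assigned to other libraries was not tested, and the labels used here name no lane or index.

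For midkine against vehicle, none of the 30 members that passed the filter on low counts was called by edgeR's quasi-likelihood test at an adjusted p of 0.05, as were 0 of 11665 genes in all (0% called, 1178 at an unadjusted p under 0.05). MYH3, MYH7, MYH8, TNNT1, TNNI1, MYL2 and MYL3 did not pass the filter. Fitted log2 fold changes (midkine minus vehicle) were positive for 30 of 30 members, from 2.47 for TNNC1 to 6.56 for MYBPC1, with a median of 6.34 against 0.04 over all genes. All 30 had an unadjusted p under 0.05, and the smallest adjusted p was 0.399. Every member had its highest level in midkine 1, 1 library of the midkine group, so this count is a description.

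MYH4 had a log2 fold change of 6.56 (SE 3.07, adjusted p = 0.493 by edgeR), CKM 6.49 (SE 2.63, 0.431), TNNC2 6.44 (SE 2.55, 0.431), TNNT3 6.43 (SE 2.40, 0.399), PVALB 6.24 (SE 2.50, 0.431), ATP2A1 6.15 (SE 2.36, 0.413), MB 5.89 (SE 2.18, 0.399), ACTA1 5.49 (SE 2.19, 0.431) and DES 4.97 (SE 1.59, 0.399). For each of these 9 genes midkine 1 stood above every vehicle library and at least 1 other midkine library lay within or below the vehicle range, so the groups overlapped. In raw CPM no member separated the groups, while 4 of 11665 genes did (0.0343%). Without midkine 1 again no member did, and 7 genes did (0.06%).

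Without midkine 1 the direction was lost. Of 30 members 18 were then positive and 12 negative, with a median log2 fold change of 0.23 and a range from -1.91 (MYH4, SE 1.24) to 3.38 (ACTN2, SE 1.24), and 0 of 11632 genes were called (0%, 1195 at an unadjusted p under 0.05). ACTN2, MYH2 (3.37, SE 1.32), MYH1 (2.83, SE 1.26) and DES (1.16, SE 0.47) had an unadjusted p under 0.05, on the higher side. Without midkine 1 and 5, an exclusion chosen after the values were seen, 4 members were positive and 26 negative, with a median of -0.96 and 14 at an unadjusted p under 0.05, all lower in midkine, and again 0 genes were called by edgeR (1148 at an unadjusted p under 0.05). MYH4 was then at -2.28 (SE 1.31) and CKM at -2.11 (SE 0.86).

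Leaving out midkine 1 with the 5 libraries of title numbers 3 and 4 left midkine 2, 5 and 6 against vehicle. There 29 members were positive and MYH4 was negative (-0.49, SE 0.22), with a median of 1.38 and 0 genes called by edgeR (792 at an unadjusted p under 0.05). At that unadjusted p 16 members were higher in midkine and 1 lower. MYH2, ACTN2 and MYH1 had the highest values, 4.72 (SE 1.20), 4.58 (SE 1.14) and 4.18 (SE 1.07), and midkine 5 alone held their high levels. The sign of the list's median thus followed which midkine libraries were left in.

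**Figure D5:**
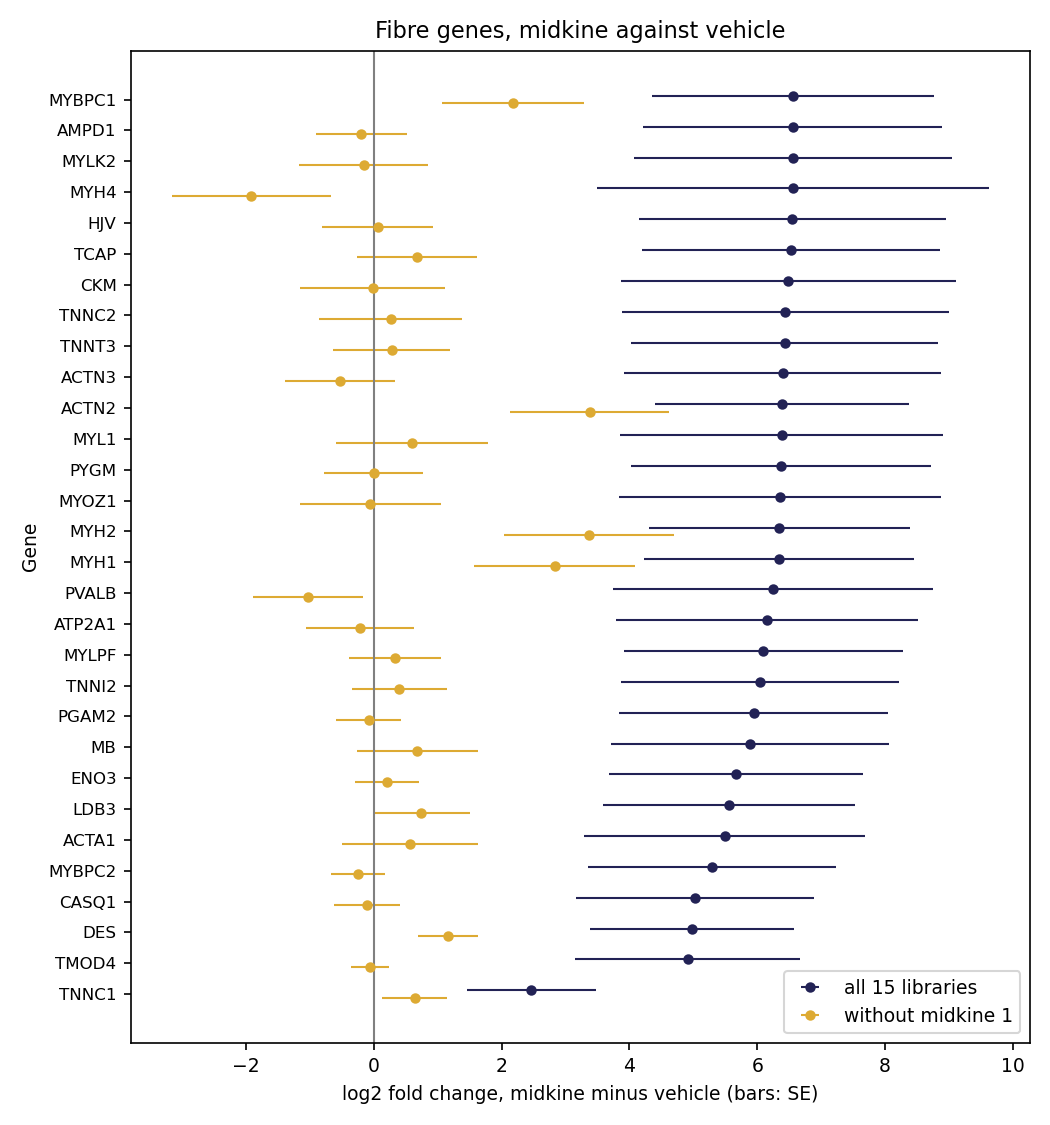
Log2 fold change of midkine minus vehicle (x axis, bars are standard errors) for the 30 fibre genes tested (y axis), in all 15 libraries (dark) and without midkine 1 (yellow). With all libraries the values lie between 2.47 and 6.56, and without midkine 1 between -1.91 and 3.38.

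DESeq2 gave 2 answers that depend on its handling of outlying counts. By default it replaced outlying counts in 36 of the 37 members and called 0 of 37, with 23 positive and 14 negative and 92 of 13595 genes called in all (0.677%). Which library's counts were replaced was not recorded. With no replacement and no filter on outlying counts, a setting chosen after the data were seen, it called 31 of 37 members, all higher in midkine, and 455 of 13329 genes (3.41%). MYH4 (adjusted p = 0.0786 by DESeq2), MYH3, MYH8, MYL2, MYL3 and TNNC1 were not called. With replacement the smallest adjusted p among members was 0.0775, for ACTN2.

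Other genes of muscle fibres that are not members moved with midkine 1. Of 36 further sarcomere genes measured 32 had their highest level there, of 26 genes of excitation and calcium release 20 did, of 21 genes of fibre energy supply 20 did, and of 12 satellite cell and myoblast genes 11 did. None passed edgeR's threshold in either direction, and log2 fold changes were positive for 22 of 22, 14 of 15, 16 of 17 and 1 of 1 of those tested. The sarcomere gene FHL1 had 2158 raw CPM in midkine 1, 184 in midkine 5 and 5.34 to 17.7 elsewhere. TRDN, triadin of the calcium release complex, had 2421 raw CPM in midkine 1, 37.3 in midkine 5, 4.55 to 7.31 in vehicle and at most 0.254 in the 5 midkine libraries of title numbers 3 and 4. PAX7, the marker of resting satellite cells, had 0.263 raw CPM in midkine 1 and at most 0.135 elsewhere, and MYOG, of differentiating myoblasts, had 16.7 in midkine 1. CDH15 and MYMK of the same list had 24.4 and 0.263 raw CPM in midkine 1, so no cell stage is read from this list.

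The profiles most like the summed fibre genes over the 15 libraries, by Pearson's r of log2 CPM among 11146 genes, were those of DHRS7C, UNC45B, ABRA, PPP1R3A and ANKRD23, each with r = 0.98. All 5 were high in midkine 1, from 173 (UNC45B) to 1733 raw CPM (ANKRD23), and second in midkine 5. This likeness rests on the 2 libraries.

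Markers of mammary epithelium stood low in midkine 1. Of 19 mammary epithelial genes 12 had their lowest raw CPM there. The summed level of the 19 was 1941 raw CPM against 8026 to 12196 in vehicle, 4523 to 16701 in the other midkine libraries and 11291 in midkine 5. After TMM scaling, which allows for the counts taken by the fibre genes, it was 3477 CPM against 7579 to 11921 in vehicle. The lowest of the other midkine libraries, midkine 4-2, then had 4257 CPM. KRT8, a keratin of luminal cells, had 217 raw CPM in midkine 1 and 477 to 3911 in the others. In midkine 5 the milk casein gene CSN2 alone made up 7352 raw CPM of the epithelial sum. Of 12 smooth muscle genes 7 were lowest in midkine 1 and 3 highest there, namely SYNM (1556 raw CPM), LMOD1 (461) and SYNPO2 (250). Their sum in midkine 1 was 3424 raw CPM, against 6095 to 17356 in vehicle, 3703 in midkine 5 and 2552 in midkine 3-2. After TMM scaling it was 6133 CPM, inside the vehicle range of 5384 to 16132, with SYNM, LMOD1 and SYNPO2 in the sum. The 4 smooth muscle genes of highest mean level, ACTA2, MYH11, TAGLN and MYL9, had 386, 111, 201 and 102 raw CPM in midkine 1. Their lowest levels in vehicle were 2323, 464, 856 and 558 raw CPM. The part of tissue composition in the fibre gene levels was not tested. Of 13 heart genes 4 were highest and 4 lowest in midkine 1. The 4 highest were CSRP3 (178 raw CPM, 66.3 in midkine 5), which skeletal muscle also expresses, MYL4 (22.7), ACTC1 (14.3) and NPPA (0.263). NKX2-5 was at 0 in every library. Of 6 brown fat genes COX8B, which muscle also expresses, had 306 raw CPM in midkine 1, while UCP1, the defining gene of brown fat, was at 0 there. Of 9 nerve genes 3 were highest and 3 lowest in midkine 1.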

How the data were processed

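Poly(A)-selected RNA of 15 mammary tumour pieces was sequenced as 150-bp read pairs, per the labels' protocols. The authors deposited whole-number read counts per gene symbol, with no normalization, for 17463 symbols. The submitters' processing notes name the build rn6. The aligner's version, annotation and strand setting were not given in the sources used here. Counts of near-identical genes (actins, myosin heavy chains) may be split between copies. No row lacked a gene name, and no column lacked a sample.

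Samples were grouped by treatment label, and columns were matched by title. Raw CPM is the count per 1000000 deposited counts, and intervals are exact binomial at 95%. With R 4.3.3 and edgeR 4.0.16, counts were kept by filterByExpr (11665 genes), scaled by TMM and tested by the package's quasi-likelihood test, with p-values adjusted by Benjamini-Hochberg over all genes and a threshold of 0.05. DESeq2 1.42.0 was an alternative. The gene tests were tested on simulated data. The lowest chi-square per degree of freedom between libraries of a group was 20.3 over 51 pairs, so no pair was treated as 1 library. Depth was 4925504 to 8486523 counts (median 7252603), and 3 counts is the limit a count of 0 allows.

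The members and lists were chosen with earlier results of these data known. By the rule for named genes all members are named with levels, 12 were to be followed through every alternative (9 passed the filter and have a row), and from each other list only genes among the 4 of highest mean level. CSN2, PAX7, MYOG, CDH15, MYMK, UCP1, ACTG2, SYNM, LMOD1, SYNPO2, ACTC1, NPPA and NKX2-5, and the genes beside members among the 10 with most counts, were named outside the rule, after their values were seen. Promoters came from RefSeq on GRCr8. A planned division of fast and slow genes by coding length was not made. Figures and tables were made with Python 3.11.15, pandas 2.3.3, scipy 1.17.1 and matplotlib 3.10.9.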

Additional observations from a re-analysis of the deposited data

Results flagged for a closer look

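A library stood far from the others of its group where the gap to its neighbour, divided by the group's whole range, passed Dixon's critical value (0.493 for 9 libraries, 0.625 for 6). For a value chosen beforehand chance gives about 1 such group in 20. The fibre genes share libraries and were chosen with earlier results of these data known. The number of them flagged is therefore a description, and the share flagged over all genes was not computed.

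In the midkine group this held for midkine 1 in the share of counts on the fibre genes (0.98, at 29.5% against 0.492% in midkine 5) and in the level of 36 of the 37 fibre genes. The gap over the range was 0.73 for MYH8, 0.81 for MYH2, 0.84 for ACTN2, 0.86 for TNNC1, 0.88 for MYH1, 0.91 for TNNI1, 0.92 for MYL2, 0.95 for MYBPC1, 0.96 for LDB3, 0.97 for TNNT1, MB, ACTA1 and DES, 0.98 for TNNT3, TNNI2, TNNC2, MYLPF, MYL1, CASQ1, MYL3 and TCAP, 0.99 for ACTN3, ATP2A1, MYBPC2, MYOZ1, MYH7, TMOD4, MYLK2, HJV, CKM, ENO3, PYGM, PGAM2 and AMPD1, and 1.00 for MYH4 and PVALB. MYH3 alone did not pass, with 4.47 raw CPM in midkine 1 and 3.64 in midkine 5.

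In the vehicle group 6 levels passed. Vehicle 5, the library of lowest total, was highest for TNNI2 (0.74, at 35.7 raw CPM against 16.8 in the next), MYLPF (0.71, 42.0 against 33.4) and MYLK2 (0.67, 6.09 against 3.65). Vehicle 3 was highest for LDB3 (0.66, 8.63 against 6.77), vehicle 2-2 for MYL3 (0.72, 1.81 against 0.609, which is 14 counts) and vehicle 6 lowest for MYBPC2 (0.68, 21.6 against 35.3).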

How the results depend on the processing

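The count of genes called by edgeR was 0 under other scaling (size factors of DESeq2, or the total count alone), with no filter on low counts, with libraries of 1 title number summed, and without each library in turn (0 to 0). With the total count alone the median log2 fold change of all genes moved from 0.04 to -0.10 and that of the fibre genes from 6.34 to 5.45, with 30 of 30 still positive. DESeq2 called 92 genes by default and 455 with no replacement of outlying counts, of which 31 were fibre genes, the last setting chosen after the data were seen. Without 1 library in turn the log2 fold change ran from 0.57 to 5.96 for ACTA1, -0.22 to 6.33 for ATP2A1, -0.0156 to 6.66 for CKM, 1.16 to 5.14 for DES, 0.68 to 6.07 for MB, -1.91 to 6.74 for MYH4, -1.03 to 6.43 for PVALB, 0.26 to 6.61 for TNNC2 and 0.28 to 6.60 for TNNT3, each time lowest without midkine 1. DESeq2 with replacement of outlying counts turned ATP2A1 (-0.23), CKM (-0.0493), MYH4 (-1.71) and PVALB (-0.96). Without midkine 1 and 5, chosen after the data were seen, the value was -0.99 for ACTA1, -1.62 for ATP2A1, -2.11 for CKM, -0.74 for MB, -2.28 for MYH4, -1.86 for PVALB, -1.95 for TNNC2 and -1.58 for TNNT3, while DES stayed positive (0.79). Without midkine 1 and the libraries of title numbers 3 and 4 only MYH4 turned (-0.49). With the title number as a replicate block, edgeR called 0 genes (323 at an unadjusted p under 0.05) and gave -0.69 for ACTA1, -1.40 for ATP2A1, -2.47 for CKM, -0.31 for MB, -4.49 for MYH4, -1.81 for PVALB, -1.98 for TNNC2 and -1.14 for TNNT3, and 0.75 for DES. Midkine 1 is the only library of its number, so the block takes it out of the contrast. Libraries that share a number across groups had deviations correlated at -0.24 to 0.14, and 0 of 5 numbers matched best with themselves. This check compares different tumours, so it cannot exclude a link between libraries of 1 number, and no label states one. The mean over libraries of the trace median was 0.263% in the 8 libraries, or 0.139% after TMM scaling, and 0.0386% in the 5 of title numbers 3 and 4, or 0.0511% over members with at least 5000 counts and 0.0204% after TMM scaling. The same scaling divides midkine 1 by another factor than the other libraries, which moves every ratio to it. The division of fast and slow genes by coding length was not run. Slow genes with few counts limit the ratios of midkine 5.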
